A study of Mus musculus with 10 samples.

Results

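The collagen genes were followed through base-resolution maps of 5-carboxylcytosine (5caC) in mouse embryonic stem cells. They were the autosomal protein-coding genes of the RefSeq annotation whose symbol has the form of a collagen chain (Col, a type number, the letter a and a chain number). This gave 42 of the 20665 autosomal protein-coding genes, 9 of them fibrillar (Col1a1, Col1a2, Col2a1, Col3a1, Col5a1, Col5a2, Col11a1, Col11a2 and Col27a1) and 33 other. The 2 X-linked collagen genes (Col4a5 and Col4a6) did not enter.

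Collagens are secreted matrix proteins in which 3 chains wind into a triple helix. Fibrillar chains assemble into the banded fibrils of bone, cartilage, skin and vessel walls. Other chains form the sheets of basement membranes, the beaded filaments of type VI, the fibril-associated collagens with interrupted helices (FACIT), or proteins that span the plasma membrane. Most fibrillar collagens are made by differentiated mesenchymal cells, whereas basement membrane chains are also made by early embryonic cells. 5caC is the last oxidation product that Tet enzymes make from 5-methylcytosine, and thymine DNA glycosylase, encoded by Tdg, removes it. 5caC thus marks CGs at which 5-methylcytosine had been oxidised.

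The study had 10 samples in 5 groups of 2 technical replicates. Cells labelled wt (wild type) or Tdg, the latter with no word on the kind of alteration, were each cultured without feeders on gelatin in serum with LIF or in the same medium with inhibitors (serum-2i: 3 µM of the GSK3 inhibitor CHIR99021 and 1 µM of the MEK inhibitor PD0325901). The remaining group, DNA from serum-grown triple Tet knockout cells, served as the study's negative control and is not analysed here. The sources used here do not name the cell line or the number of clones. The design text sets the culture media side by side as primed and naive pluripotency.

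The deposited table gave 1 coverage value per CG position and group. A listed site is a CG with a value in that group, and coverage was read as the number of reads at it, averaged over the technical replicates. The serum wt group listed 8685 sites with a summed coverage of 43172, serum-2i wt 110753 sites with 890158.5, serum Tdg 374488 sites with 7486660 and serum-2i Tdg 689303 sites with 12348368. Sites were listed from a coverage of 3 in serum wt, 4 in serum-2i wt and 6 in both Tdg groups, so a CG that is not listed has an unknown value and not a value of 0. With no value per replicate, differences could not be compared with replicate spread, no test was made, and the 95% intervals cover counting error only.

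Collagen genes carried listed sites in every group and most of them carried several in Tdg cells. Together they spanned 4920.65 kb, which is 0.5% of the length of all autosomal protein-coding spans, and held 18 sites in serum wt, 239 in serum-2i wt, 733 in serum Tdg and 1275 in serum-2i Tdg. These were 0.355% (interval 0.211% to 0.561%), 0.353% (0.310% to 0.401%), 0.332% (0.309% to 0.357%) and 0.330% (0.312% to 0.348%) of the sites in protein-coding spans. In the serum-2i wt group and both Tdg groups the whole interval thus lay below the share of the length, while that of serum wt reached past it. No genome sequence was used, so sites could be set against length but not against the number of CGs. Per kb, collagen genes held 0.00366, 0.0486, 0.149 and 0.259 sites in the same order of groups, against 0.00515, 0.0687, 0.224 and 0.393 over all protein-coding spans. The median sites per kb of single genes, taken by span class, did not all lie below those of all protein-coding genes. In genes under 30 kb the collagen medians were 0.540 in serum Tdg and 0.721 in serum-2i Tdg, against 0.124 and 0.289 over all. From 30 to 100 kb they were 0.117 and 0.380, against 0.144 and 0.374, and over 100 kb 0.0541 and 0.146, against 0.0698 and 0.247. A collagen site had a mean coverage of 4.89 in serum wt, 7.97 in serum-2i wt, 18.8 in serum Tdg and 17.1 in serum-2i Tdg.

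A site was listed in 10 of the 42 genes in serum wt, in 33 in serum-2i wt, in 38 in serum Tdg and in 41 in serum-2i Tdg. Over all protein-coding genes a site was listed in 16.1%, 58.1%, 68.1% and 76.8% of genes, but collagen genes are long, with a median span of 110 kb against 17.5 kb. Col10a1, the collagen of hypertrophic cartilage, was the only member with no site in any group, and its span of 7.11 kb was the shortest. Col3a1, Col5a2 and Col11a1 had no site in serum Tdg. The most sites in serum Tdg were in Col26a1 (105), Col8a2 (72), Col18a1 (71) and Col13a1 (66).

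**Figure D1:**
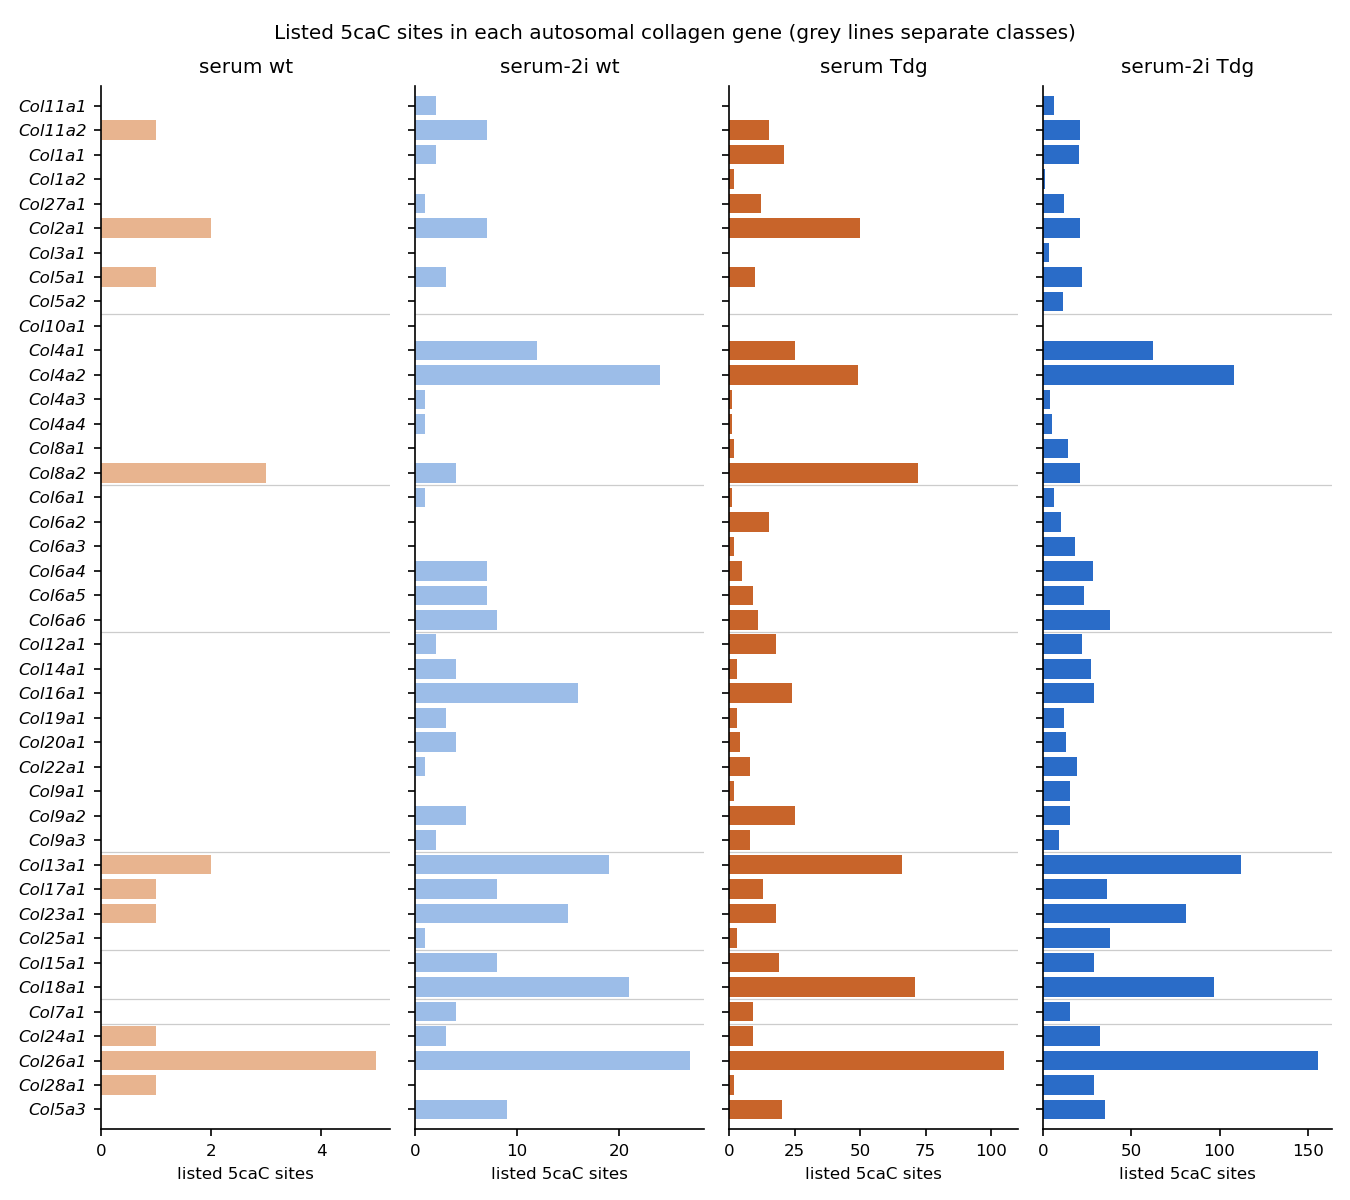
Number of listed 5caC sites (horizontal axis, a separate scale for each panel) in each of the 42 collagen genes, in the 4 listed groups. Grey lines separate the fibrillar genes at the top from the classes of other collagens, and Col26a1 has the longest bar in both Tdg groups (105 and 156 sites).

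The starts of the collagen genes are shown first, because the CGs there differ from gene to gene in whether 5caC was listed. The stretches printed below are upstream of a RefSeq start, lie outside every annotated gene span and are written 5′ to 3′ on the gene's strand (RefSeq, GRCm38.p6). Capitals mark the CGs listed in either Tdg group. Among fibrillar genes, Col1a2 (chr6:4505368-4505617, plus strand) had 2 of its 11 CGs listed, Col5a1 (chr2:27886175-27886380, plus strand) had none of 25, and Col3a1 (chr1:45311288-45311537, plus strand) had no CG to list. Col8a2 (chr4:126286544-126286793, plus strand) and Col8a1 (chr16:57754738-57754987, minus strand) encode the chains of the same type VIII network and had 3 of 24 and none of 10 CGs listed. Col5a3 (chr9:20815118-20815317, minus strand) had 4 of the 10 CGs in these 200 bases listed.
Col1a2: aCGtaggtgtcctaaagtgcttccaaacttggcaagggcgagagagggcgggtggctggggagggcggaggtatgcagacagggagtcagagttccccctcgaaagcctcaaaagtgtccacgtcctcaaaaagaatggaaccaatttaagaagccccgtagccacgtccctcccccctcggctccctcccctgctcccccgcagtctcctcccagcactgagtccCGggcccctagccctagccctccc
Col5a1: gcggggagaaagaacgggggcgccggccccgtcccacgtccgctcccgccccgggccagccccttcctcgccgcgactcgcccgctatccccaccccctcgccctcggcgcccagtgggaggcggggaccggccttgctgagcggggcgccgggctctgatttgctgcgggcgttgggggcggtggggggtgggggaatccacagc
Col3a1: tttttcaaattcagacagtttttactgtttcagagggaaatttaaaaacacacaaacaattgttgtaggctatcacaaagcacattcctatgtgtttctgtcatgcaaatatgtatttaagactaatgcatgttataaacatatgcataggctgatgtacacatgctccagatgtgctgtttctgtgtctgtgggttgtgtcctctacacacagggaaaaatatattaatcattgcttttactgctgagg
Col8a2: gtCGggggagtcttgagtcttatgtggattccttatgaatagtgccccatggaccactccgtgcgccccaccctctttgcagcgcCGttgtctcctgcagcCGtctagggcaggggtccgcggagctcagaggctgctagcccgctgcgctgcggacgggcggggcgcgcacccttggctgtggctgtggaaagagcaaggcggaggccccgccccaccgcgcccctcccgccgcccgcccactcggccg
Col8a1: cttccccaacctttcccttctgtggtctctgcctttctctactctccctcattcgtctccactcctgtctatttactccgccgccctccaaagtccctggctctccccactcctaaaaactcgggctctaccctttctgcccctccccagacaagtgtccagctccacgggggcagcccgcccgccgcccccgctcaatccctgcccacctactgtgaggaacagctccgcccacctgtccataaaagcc
Col5a3: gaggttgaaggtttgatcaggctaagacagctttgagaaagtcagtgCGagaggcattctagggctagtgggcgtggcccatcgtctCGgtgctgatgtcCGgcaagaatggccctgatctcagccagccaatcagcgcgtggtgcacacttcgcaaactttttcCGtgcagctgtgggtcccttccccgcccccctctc

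In Col1a2 the listed CG lying 249 bases before the start had a coverage of 16 in serum Tdg and 8.5 in serum-2i Tdg, and that lying 24 bases before it had 21.5 and 8. In Col8a2 the CGs 248, 165 and 149 bases before the start had 8, 20.5 and 49.5 in serum Tdg, and none of them was listed in serum-2i Tdg. In Col5a3 the CGs at 203, 163, 150 and 85 bases had 10, 27.5, 86 and 9.5 in serum Tdg. Only the CG at 150 bases was also listed in serum-2i Tdg, at 8.5. The marked CGs of Col8a2 and Col5a3 were thus almost all listed in serum alone, and those of Col1a2 in both media, at a lower coverage in serum-2i.

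Over all windows of 300 bases around a start (250 before and 50 after), 33 of the 42 members had a window and some had several, 36 windows in all. The 9 members not in these counts are the fibrillar Col1a1, Col2a1 and Col5a2 and the other members Col4a3, Col9a3, Col12a1, Col14a1, Col22a1 and Col26a1. The letters CG, which read the same on both strands, occurred in 91.7% of the collagen windows and in 95.6% of the windows of all autosomal protein-coding genes. Of the 473 collagen CGs in these windows, none was listed in serum wt, 1 in serum-2i wt, 47 in serum Tdg (9.94%, interval 7.39% to 13.0%) and 16 in serum-2i Tdg (3.38%, 1.95% to 5.44%). Of the 288778 CGs in the windows of all protein-coding genes, 2.57% were listed in serum Tdg and 1.24% in serum-2i Tdg. A CG was listed in serum Tdg in 20 of the 36 collagen windows (55.6%) against 19.2% of all windows, and in serum-2i Tdg in 10 (27.8%) against 10.7%.

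The listed share was smaller in windows with more CGs, for collagen genes as for all genes. In serum Tdg it was 22.0% of CGs in collagen windows with fewer than 10 CGs, 12.0% with 10 to 19 and 5.67% with 20 or more, against 8.16%, 5.44% and 0.950% in all windows of the same classes. Each collagen share was above that of all genes in its class, and the lower bound of its interval (12.3%, 7.47% and 3.13%) was too. Single windows weighed in these: 1 window of Col18a1 held 5 of the 13 listed CGs of the lowest class, and Col5a3 held 7 of 14 in the highest. In serum-2i Tdg the collagen shares were 11.9%, 4.19% and 0.810%, against 7.70%, 1.85% and 0.115%. There every lower bound (4.91%, 1.70% and 0.098%) lay below the share of all genes. CGs of a window are neighbours that a read can share, so these intervals are too narrow. In the fibrillar windows 5 of 90 CGs were listed in serum Tdg, from Col1a2 (3) and Col11a2 (2), and in the other windows 42 of 383. Col1a1 and Col2a1, which are not in this count, had 12 and 5 serum Tdg sites within 1 kb of a span end.

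The collagen windows with most listed CGs were those of Col5a3 (7 of 20 in serum Tdg and 2 in serum-2i Tdg), of an internal start of Col18a1 (5 and 3 of 6), of Col15a1 (4 and 2 of 8) and of Col7a1 (4 and 1 of 12). Col18a1 and Col15a1 encode the multiplexins, whose ends are cleaved to endostatin and its relative, and Col7a1 encodes the anchoring fibrils of skin. No CG was listed in either Tdg group at the shared start of Col4a1 (37 CGs) and Col4a2 (33 CGs), the basement membrane chains whose spans overlap by 85 bases, nor in the windows of Col5a1 (34), Col23a1 (24), Col25a1 (23) and Col27a1 (18).

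**Figure D2:**
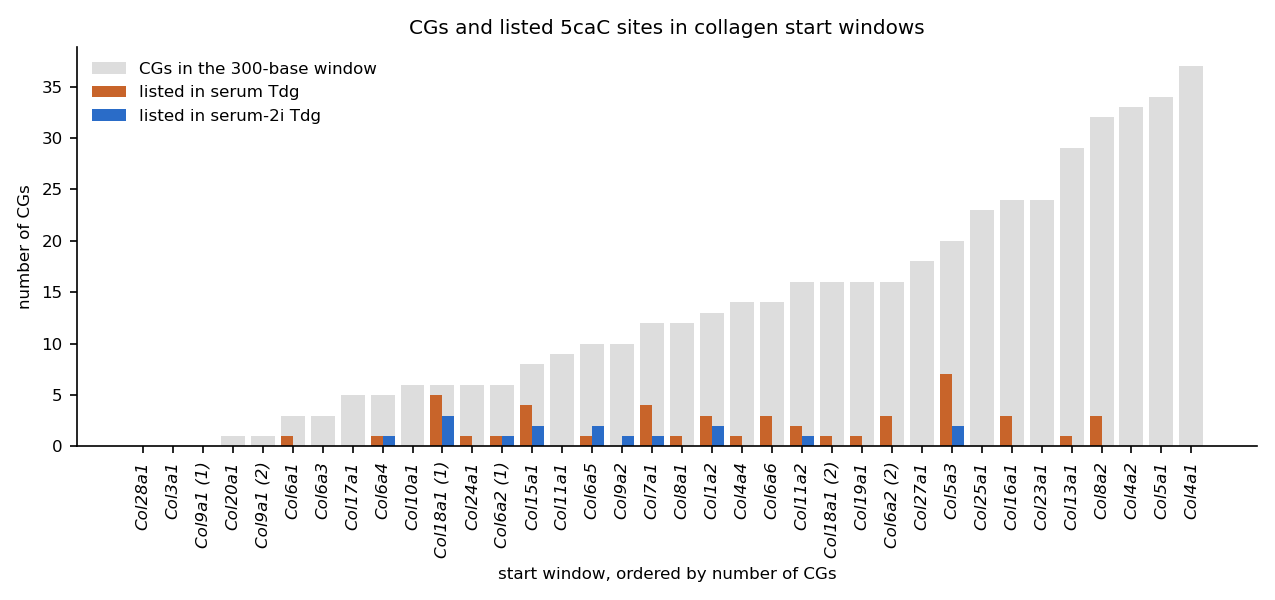
Number of CGs (vertical axis) in the 36 start windows of 300 bases of collagen genes, ordered by that number, with numbers in brackets for genes with several starts. Grey bars count all CGs, orange and blue bars those listed in serum Tdg and serum-2i Tdg, and Col5a3 has the tallest orange bar (7 of 20).

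The culture media were compared in Tdg cells, where coverage was deepest. For each gene the coverage of its sites was summed and divided by the sum of its group, and the log2 ratio of this share, serum-2i Tdg over serum Tdg, was taken. Genes entered with a mean summed coverage of 20 or more across the 4 groups, and were called higher or lower where the share differed at least 2-fold and the counting interval excluded no difference. Of the 42 collagen genes 37 passed this filter, and 35 had sites in both media: 12 were higher in serum-2i, 4 were lower and 19 were between. Over all 18050 genes with a ratio, of every biotype, 29.6% were called higher and 25.7% lower. The median collagen ratio was 0.32, against 0.10 over all genes. Col5a2 and Col11a1 passed the filter with sites in serum-2i only and have no ratio, and Col1a2, Col3a1, Col4a3, Col4a4 and Col10a1 did not pass it. Of the higher members Col6a1, Col6a3, Col8a1, Col9a1, Col14a1, Col19a1, Col25a1 and Col28a1 would have failed it had their serum-2i Tdg coverage been 0. The 4 lower members would have passed it had their serum Tdg coverage been 0. The number higher thus rests in part on the group in which these members are high. Without the filter 14 of 38 members with a ratio were higher and 5 lower. Close to the fold threshold were Col6a1 (1.20), called higher, and Col17a1 (1.00 after rounding), Col27a1 (-0.88), Col6a5 (0.87) and Col5a1 (0.79), called between. With the number of listed sites in place of summed coverage, 6 rather than 12 members were higher: Col6a1, Col6a6, Col8a1, Col9a1, Col19a1 and Col24a1 lost the call, as did Col1a1 among the lower (-0.95). Col6a2 gained a lower call (-1.47), so the number lower stayed at 4.

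**Figure D3:**
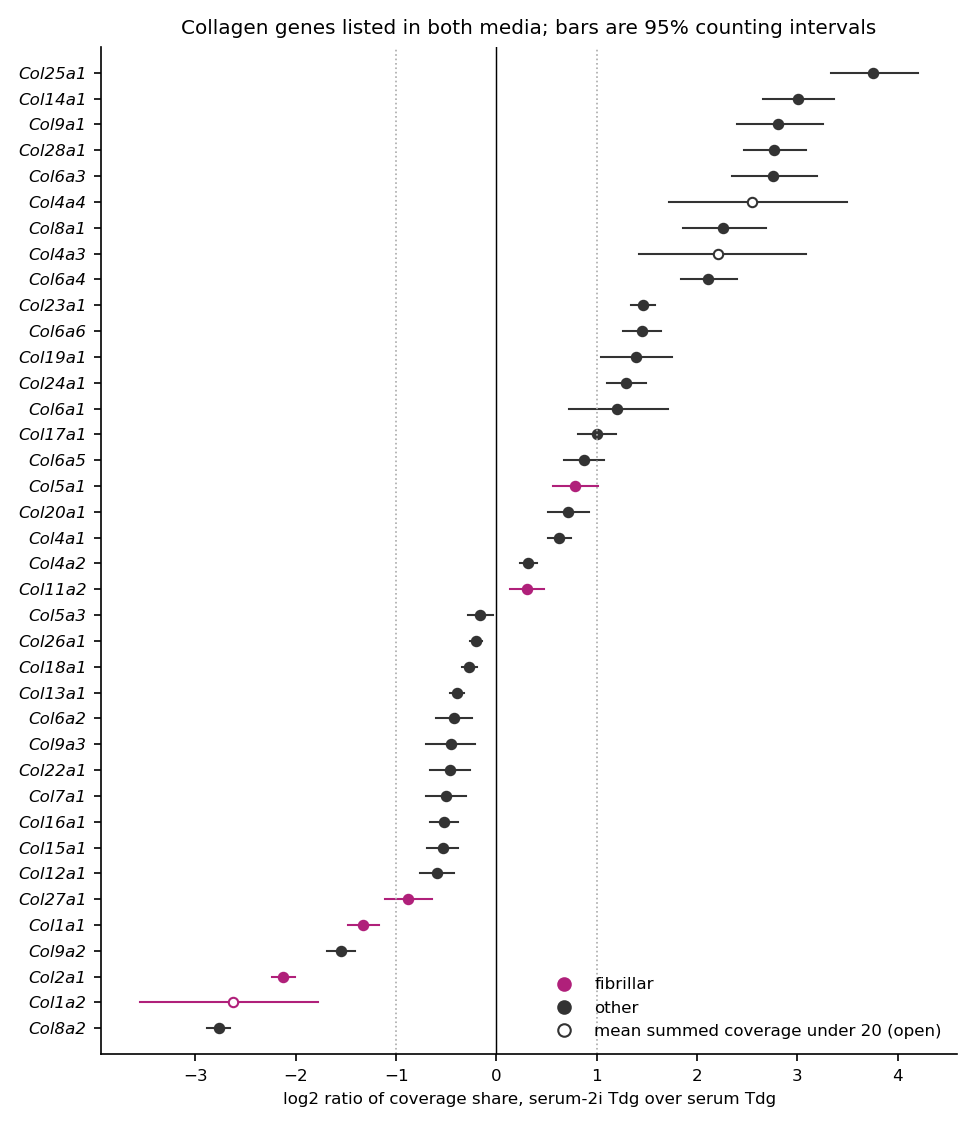
Log2 ratio of coverage share, serum-2i Tdg over serum Tdg (horizontal axis), with 95% counting intervals, for the collagen genes with sites in both media. Fibrillar genes are magenta and open points did not pass the coverage filter; the ratios run from -2.77 (Col8a2) to 3.75 (Col25a1), and dotted lines mark 2-fold.

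Of the 9 fibrillar genes 5 had a ratio, of which 0 were called higher in serum-2i, 2 lower and 3 between, with a median of -0.88. Col5a2 and Col11a1, with no site in serum Tdg and a summed coverage of 222.5 and 93 in serum-2i Tdg, could not be called, and no other class lost a member past the filter this way. Ranked above all ratios, an alternative added after the values were seen, they turn the fibrillar median to 0.31, the opposite direction. That value is the ratio of Col11a2, whose sign itself changed with the processing. The 30 other members with a ratio had 12 higher, 2 lower and 16 between, with a median of 0.67. In percent, 0% of the fibrillar genes with a ratio were higher and 40% lower, and 40% and 6.67% of the others. Over all genes with a ratio 29.6% were higher and 25.7% lower, with a median of 0.10. With 5 fibrillar ratios, nothing is read from these counts. Summed over their spans, fibrillar genes went from 110 sites in serum Tdg to 117 in serum-2i Tdg, a ratio of 1.06, whereas other members went from 623 to 1158, a ratio of 1.86, beside 1.755 over all protein-coding spans. The summed log2 share ratio was -0.78 (interval -0.84 to -0.72) for fibrillar and 0.04 (0.02 to 0.07) for other members. The fibrillar sums rest on Col2a1, which held 50 of the 110 serum Tdg sites and 1125 of their summed coverage of 2057.5. Without it, also added after the values were seen, the fibrillar genes went from 60 to 96 sites, a ratio of 1.60, and their summed log2 ratio was 0.014 (-0.07 to 0.10). With each other member left out in turn, that of the other members ran from -0.03 (without Col23a1) to 0.21 (without Col8a2). Without sites within 1 kb of a span's ends the fibrillar median was 0.49, the opposite direction. With Col5a3 and Col24a1, which also form fibrils, counted as fibrillar, it was -0.16.

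Col2a1, the main collagen of cartilage, had 2 sites in serum wt, 7 in serum-2i wt, 50 in serum Tdg and 21 in serum-2i Tdg. Their summed coverage was 9.5, 65, 1125 and 425.5. Col2a1 (chr15:97975602-98004724) held the most sites of the fibrillar genes in serum Tdg, and its share was lower in serum-2i by a log2 ratio of -2.12 (interval -2.24 to -2.01). Of its 50 serum Tdg sites, 15 were also listed in serum-2i Tdg. A run of 7 sites within 118 bases (chr15:98001354-98001471, mean coverage 21.9), 3.25 kb inside the higher end of the span, was listed in serum Tdg and held none in serum-2i Tdg. Part of Col2a1, with 17 of its 59 listed positions, also lies in the span of Gm46536.

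Col1a1 and Col1a2 encode the chains of type I collagen, the main protein of bone and skin. Col1a1 (chr11:94936224-94953042) had 0 sites in serum wt, 2 in serum-2i wt, 21 in serum Tdg and 20 in serum-2i Tdg, with a summed coverage of 0, 17, 412.5 and 271.5. Its site number hardly differed between the media, yet only 6 positions were the same. In serum Tdg 12 of the 21 sites lay within 1 kb of a span end, 6 at either end, and in serum-2i Tdg 2 of the 20 did. Its log2 ratio was -1.33 (interval -1.48 to -1.17) over the whole span and 0.49 (0.25 to 0.72) without the ends. A run of 6 sites within 106 bases (chr11:94950408-94950513, mean coverage 19.4) was listed in serum-2i Tdg only. Col1a2 had 2 sites in serum Tdg and 1 in serum-2i Tdg, all within 1 kb of the start end, with a summed coverage of 28 and 7.5, and none in wt cells.

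Col3a1 and Col5a2, of the fibrils of skin and vessel walls, are neighbours 24.6 kb apart on chromosome 1. Neither had a site in serum Tdg or in wt cells. In serum-2i Tdg Col3a1 had 3 sites with a summed coverage of 48.5 and Col5a2 had 11 with 222.5. Col11a1 was listed in both serum-2i groups alone, with 2 sites in wt and 6 in Tdg cells and a summed coverage of 14.5 and 93. These genes had no serum value to compare, so no fold is given.

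Col11a2, whose chain joins type XI and cartilage fibrils, had 1, 7, 15 and 21 sites in serum wt, serum-2i wt, serum Tdg and serum-2i Tdg, with a summed coverage of 4.5, 59.5, 221 and 450.5. Its ratio was 0.31 (interval 0.14 to 0.47), and 10 of its 15 serum Tdg sites were also listed in serum-2i Tdg. The ratio of Col11a2 changed sign with 2 kb flanks (-0.61) and by number of sites (-0.39). Col5a1, which sets the diameter of type I fibrils, had 1, 3, 10 and 22 sites with a summed coverage of 4.5, 24, 111 and 316, and a ratio of 0.79 (0.56 to 1.01). Col27a1, a collagen of cartilage and its calcifying zone, had 0, 1, 12 and 12 sites with a summed coverage of 0, 7.5, 160 and 143.5. Its ratio was -0.88 (-1.11 to -0.64), and 1 position was listed in both Tdg groups. All 3 were between by the fold rule.

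Among the network-forming collagens the type VIII chains took opposite calls. Col8a2 (chr4:126286794-126314330) had 3 sites in serum wt, 4 in serum-2i wt, 72 in serum Tdg and 21 in serum-2i Tdg, with a summed coverage of 17.5, 26.5, 1483.5 and 359. Its 2.61 sites per kb in serum Tdg were the highest of all members, and its ratio of -2.77 (interval -2.89 to -2.65) the lowest among members past the filter. Col8a1 had 0, 0, 2 and 14 sites with a summed coverage of 0, 0, 28 and 221.5, and was higher in serum-2i by 2.26 (1.86 to 2.69). The longest run of sites in any member lay in Col8a2, 1.52 kb past its start, with 11 sites within 537 bases in serum Tdg (chr4:126288315-126288851, mean coverage 27.8). Of these positions 2 were also listed in serum-2i Tdg, at a mean of 15.5, and 3 in serum wt, at a mean of 5.83.

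Col4a1 and Col4a2, the ubiquitous basement membrane chains, run away from a shared start. Col4a1 had 25 sites in serum Tdg and 62 in serum-2i Tdg and a ratio of 0.63 (interval 0.51 to 0.74), and Col4a2 had 49 and 108 and a ratio of 0.32 (0.23 to 0.40). Both were between. Within Col4a2 the media listed different places: 9 sites within 265 bases (chr8:11313693-11313957), 0.888 kb past the start, in serum Tdg only, and 6 sites within 146 bases (chr8:11315503-11315648), 2.70 kb past it, in serum-2i Tdg only. Col4a3 and Col4a4, chains of the kidney's basement membrane with overlapping starts, had 1 site each in serum Tdg and 4 and 5 in serum-2i Tdg. Their mean summed coverage, 17.6 and 19.6, was just under the filter.

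The type VI chains, which form beaded filaments around cells, included 4 of the 12 higher members and none of the lower, with all 6 having a ratio and 29.6% of all genes higher. Summed over the 6 genes they went from 43 sites in serum Tdg to 123 in serum-2i Tdg, with a log2 ratio of 1.06 (interval 0.96 to 1.15). Col6a3 had no site in wt cells, 2 in serum Tdg and 18 in serum-2i Tdg, with a summed coverage of 26.5 and 296 in the Tdg groups, and a ratio of 2.76 (2.35 to 3.19). The neighbours Col6a4, Col6a5 and Col6a6 on chromosome 9 had ratios of 2.11, 0.87 and 1.45. Col6a1 had 1 site in serum Tdg and 6 in serum-2i Tdg, with a ratio of 1.20. Its call was lost with 2 kb flanks (0.02), at a coverage of at least 10 (0.72) and by number of sites, where that of Col6a6 was lost too. Col6a2 lay the other way, with 15 and 10 sites and a ratio of -0.42. By number of sites Col6a2 was called lower (-1.47, interval -2.78 to -0.21). The media shared its longest run: 7 sites in serum Tdg (mean coverage 21.6) lay among 8 in serum-2i Tdg (mean 34.4) at chr10:76616411-76616603.

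The FACIT genes were split. Col9a2 (chr4:121039566-121055325), a chain of the type IX collagen that coats cartilage fibrils, had 0, 5, 25 and 15 sites in serum wt, serum-2i wt, serum Tdg and serum-2i Tdg, with a summed coverage of 0, 37.5, 606.5 and 342, and was lower in serum-2i by -1.55 (interval -1.69 to -1.41). Col9a1, a partner chain of the same molecule, had 0, 0, 2 and 15 sites with a summed coverage of 0, 0, 25.5 and 295, and was higher by 2.81 (2.40 to 3.25). The remaining type IX chain, Col9a3, had 8 and 9 Tdg sites and a ratio of -0.46. Col14a1, which binds the surface of type I fibrils, went from 3 sites in serum Tdg to 27 in serum-2i Tdg, with a summed coverage of 36 and 476 and a ratio of 3.00 (2.66 to 3.37). The other higher member of this class was Col19a1 (1.39), and Col12a1, Col16a1, Col20a1 and Col22a1 were between, from -0.59 to 0.72.

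Col25a1, a transmembrane collagen of neurons that collects in amyloid plaques, had the highest ratio of all members, 3.75 (interval 3.34 to 4.20). It had no site in serum wt, 1 in serum-2i wt, 3 in serum Tdg and 38 in serum-2i Tdg, with a summed coverage of 10 in serum-2i wt, 24 in serum Tdg and 534 in serum-2i Tdg. All 3 serum Tdg sites had a coverage of at most 9.5, so at a coverage of at least 10 Col25a1 had no ratio. Col28a1, a collagen of peripheral nerve, went from 2 to 29 sites and from a summed coverage of 48 to 539 in Tdg cells, with a ratio of 2.77 (2.47 to 3.08). It had 1 site in serum wt and none in serum-2i wt. These long genes held few sites per kb in serum Tdg, 0.00715 in Col25a1 and 0.0102 in Col28a1.

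Col26a1 and Col18a1 held many sites in both media and had ratios near 0. Col26a1 (chr5:136741759-136883376) had 5 sites in serum wt, 27 in serum-2i wt, 105 in serum Tdg and 156 in serum-2i Tdg, with a summed coverage of 24, 224.5, 2017.5 and 2891, and a ratio of -0.20 (interval -0.26 to -0.14). Its 1.10 sites per kb in serum-2i Tdg were the most among members other than the fibrillar ones. Col18a1, an abundant basement membrane collagen, had 0, 21, 71 and 97 sites with a summed coverage of 0, 175, 1297 and 1774.5, and a ratio of -0.27 (-0.34 to -0.20). Of the 105 serum Tdg sites of Col26a1 66 were also listed in serum-2i Tdg, and of the 71 of Col18a1 43 were. The other multiplexin, Col15a1, had a ratio of -0.54 over its span and 1.31 without the positions that lie in overlapping gene models, which held 66.7% of its positions. Col7a1 had a ratio of -0.50 over its span and 2.82 without its ends, where 7 of its 9 serum Tdg sites lay.

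The ratio moved with gene span. Collagen genes under 30 kb had a median ratio of -0.89 over 8 genes, and the 4 lower members were all among them. Those of 30 to 100 kb had a median of 0.72 over 7 genes and those over 100 kb 0.83 over 20 genes, with 2 and 9 called higher and none lower. In the 3 classes 12.5%, 28.6% and 45.0% of the collagen genes were called higher and 50%, 0% and 0% lower. Over all autosomal protein-coding genes of the same classes 17.9%, 32.1% and 51.2% were higher, 40.0%, 13.4% and 3.16% lower, and the medians were -0.60, 0.38 and 1.03. Spearman's correlation of the ratio with span was 0.510 over the 35 collagen genes and 0.454 over 12400 protein-coding genes, and with the sites per kb in serum Tdg it was -0.791 and -0.777. These are descriptions across genes that share the same libraries, and the second holds serum Tdg on both sides. Of the fibrillar genes with a ratio, 3 of 5 were under 30 kb, against 5 of 30 other members, so the classes differ in span too. Under 30 kb the median was -1.33 over the 3 fibrillar genes and -0.46 over the 5 other members. Over 100 kb it was -0.05 over 2 fibrillar genes and 1.08 over 18 other members. These are few genes, and the part of span in the difference was not tested.

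**Figure D4:**
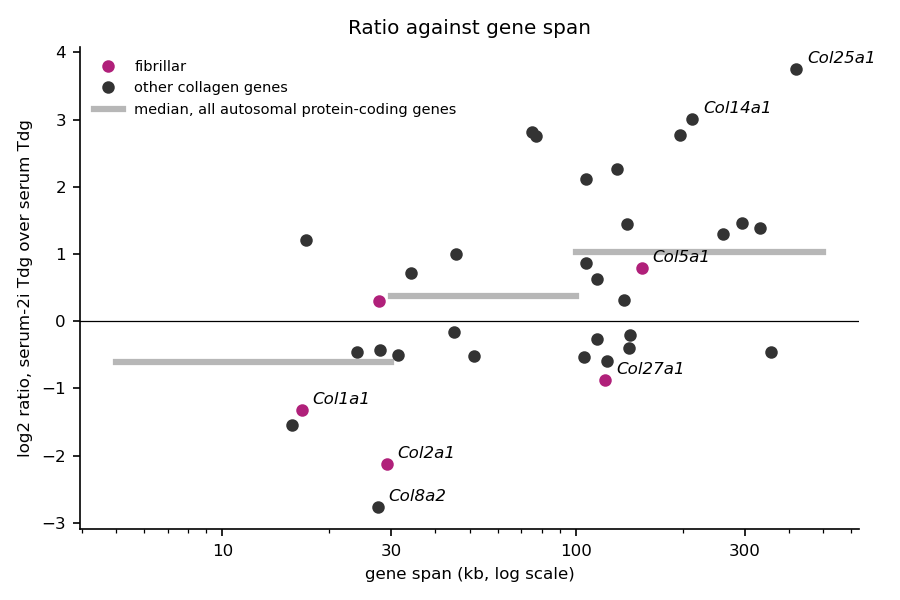
Log2 ratio of coverage share, serum-2i Tdg over serum Tdg (vertical axis), against gene span in kb (log scale) for the 35 collagen genes past the filter with sites in both media. Grey bars are the medians of all autosomal protein-coding genes in 3 span classes (-0.60, 0.38 and 1.03), and the lowest points, Col8a2, Col2a1, Col9a2 and Col1a1, lie under 30 kb.

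The media also differed by distance from the start. For the distance bands, sites inside a gene's span or up to 5 kb upstream of a start were counted gene by gene. A site beside the shared start of Col4a1 and Col4a2 could thus count for both genes. For the 33 members with a known start, 72 serum Tdg and 27 serum-2i Tdg sites lay within 300 bases of a start, a ratio of serum-2i to serum sites of 0.375. The ratio was 0.536 from 300 bases to 1 kb, 0.5 from 1 to 2 kb, 2.06 from 2 to 5 kb, 1.53 from 5 to 20 kb and 2.89 (676 against 234 sites) beyond 20 kb. Over all protein-coding genes with a start it was 0.488, 0.594, 0.899, 1.20, 1.65 and 2.56 in the same bands. In both lists serum Tdg thus had more sites than serum-2i Tdg up to 2 kb and fewer beyond. Sites per 100 genes were counted without the limit to the span and 5 kb upstream. The first 500 bases after a start held 145 serum Tdg and 51.5 serum-2i Tdg sites per 100 collagen genes. Over all protein-coding genes with a start they held 49.0 and 24.7. With the member holding most serum Tdg sites left out of each band, an alternative added after the values were seen, the collagen ratios were 0.359, 0.583, 0.567, 2.53, 1.77 and 3.17. From 1 to 2 kb that member was Col4a1, and the sites it shared with Col4a2 stayed in.

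**Figure D5:**
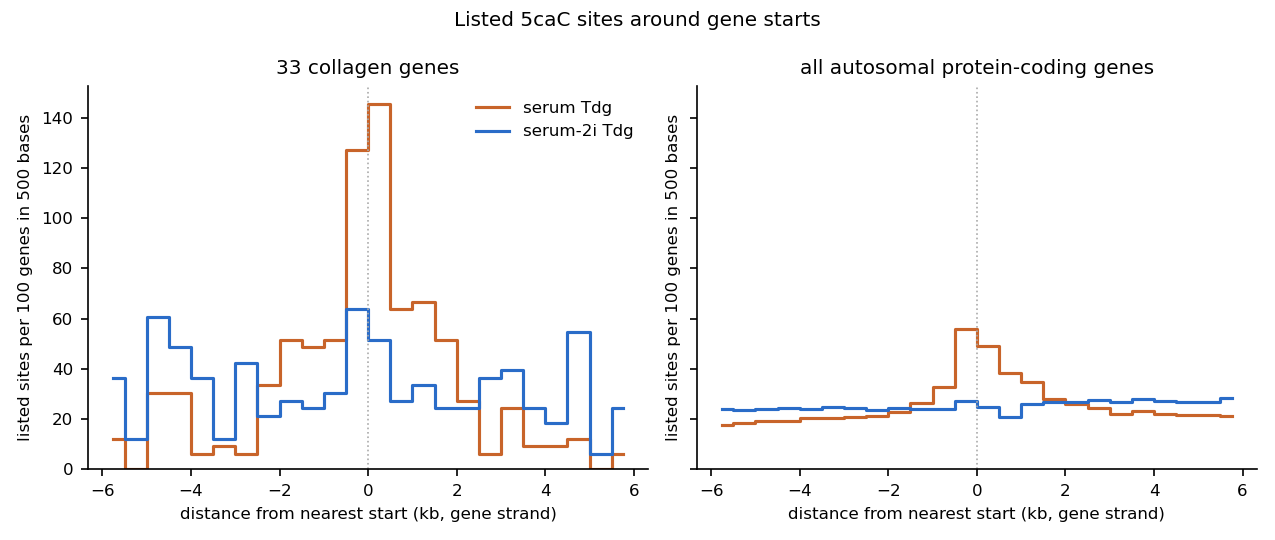
Listed sites per 100 genes in bins of 500 bases (vertical axis, shared by the panels) by distance from the nearest start in kb, positive into the gene, for 33 collagen genes on the left and all autosomal protein-coding genes with a start on the right. Orange is serum Tdg and blue serum-2i Tdg. The bins also count sites outside the gene span. Within 300 bases of a start, counted in the span or up to 5 kb upstream, the collagen genes held 72 and 27 sites.

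Of the collagen positions listed in Tdg cells, most were listed in 1 medium only. Of the 1796 positions listed in collagen spans in any group, 333 were listed in both Tdg groups, which was 45.4% of the serum Tdg and 26.1% of the serum-2i Tdg sites. Over all protein-coding spans these shares were 52.0% and 29.6%. Of the 239 serum-2i wt sites 113 were also listed in serum-2i Tdg (47.3%, against 48.4% over all protein-coding spans), and of the 18 serum wt sites 12 were also listed in serum Tdg. Only 2 collagen positions were listed in all 4 groups: one in Col26a1 (chromosome 5, position 136755353), with a coverage of 4.5, 4.5, 11 and 23.5 in serum wt, serum-2i wt, serum Tdg and serum-2i Tdg, and one in Col2a1 (chromosome 15, position 97996332), with 4.5, 11.5, 32 and 22.5.

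Tdg cells were compared with wt cells in serum-2i, the medium with the deeper wt group. Collagen spans held 239 sites in wt and 1275 in Tdg cells, a ratio of 5.33 beside 5.72 over all protein-coding spans. Of the 37 members past the filter 31 had sites in both groups: relative to the group sums, 2 had a higher share in Tdg cells, 5 a lower one and 24 were between. Over all 15053 genes with a ratio 12.2% were higher and 21.5% lower. The collagen median was -0.35, against -0.19 over all genes. The higher members were Col25a1, with 1 site in wt and 38 in Tdg cells (1.94, interval 1.31 to 2.66), and Col22a1, with 1 and 19 (1.58, 0.72 to 2.59). The lower ones were Col16a1 (-1.99), Col15a1 (-1.34), Col7a1 (-1.23), Col11a1 (-1.11) and Col2a1 (-1.08). A lower share is not fewer sites: Col16a1 had 16 sites in wt and 29 in Tdg cells, and Col2a1 7 and 21. Of these calls, that of Col2a1 was lost without sites in another span (-0.29), with 2 kb flanks (-0.92) and under median-ratio scaling (-0.89). That of Col11a1 was lost with flanks (-0.99), under this scaling (-0.92) and at a common minimum coverage of 6 (-0.82). The call of Col25a1 was lost at a coverage of at least 10 (0.29). Col22a1 had no ratio at a minimum of 6 or of 10, because its only wt site had a coverage of 5.5. The calls of Col22a1, Col15a1, Col7a1, Col11a1 and Col2a1 were lost by number of sites. The counts moved too: with sites of a coverage of at least 10 alone, 0 were higher and 8 lower, and by number of sites 1 was higher and 1 lower.

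In serum wt collagen genes held 18 sites, in Col26a1 (5), Col8a2 (3), Col2a1 (2), Col13a1 (2) and 6 genes with 1 each. For the media in wt cells 9 members had a ratio, of which 0 were higher and 5 lower, beside 4.52% and 61.8% of the 3454 genes with a ratio. For Tdg against wt cells in serum 10 had a ratio, of which 0 were higher and 7 lower, beside 3.46% and 57.6% of 3871 genes. A gene enters these ratios only through a listed serum wt site, so they are not read further.

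Genes that act on collagen were taken from lists of 60 symbols, of which 47 had a ratio of media in Tdg cells: 10 were higher in serum-2i, 15 lower and 22 between, with a median of -0.29. These were 21.3% higher and 31.9% lower, beside 29.6% and 25.7% over all genes with a ratio, and the counts of the single lists below are small and nothing is read from them. Of the biosynthesis list, the hydroxylases, chaperones and export factors of procollagen, 18 of 20 had a ratio, with 4 higher, 7 lower and a median of -0.37. Among them Serpinh1, the collagen chaperone of the endoplasmic reticulum, had a ratio of -1.71 and Sec23a, a coat protein of the vesicles that carry procollagen, 3.07. Of the genes that process and cross-link collagen, 11 of 13 had a ratio, with 0 higher, 4 lower and a median of -0.85. Pcolce, an enhancer of procollagen cleavage, had the lowest ratio of all lists, -5.36 (interval -6.32 to -4.53), with 9 sites in serum Tdg and 1 in serum-2i Tdg. That 1 site had a coverage of 6, the lowest listed in its group, so the size of the ratio rests on it. Bmp1, the protease that Pcolce enhances, had -2.09.

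The collagen receptors had 3 higher and 1 lower of 7 with a ratio. The integrin chain gene Itga1 had the highest ratio of all lists, 3.82 (interval 3.42 to 4.26), with 3 sites in serum Tdg and 38 in serum-2i Tdg. The discoidin receptors that bind fibrillar collagen took opposite calls, Ddr1 at -2.18 with 59 and 34 sites and Ddr2 at 2.62 with 6 and 44. Of the matrix partners 8 of 12 had a ratio, with 3 higher and 1 lower. Tnc, tenascin C, was higher by 3.79 with 1 and 23 sites, and Comp, a cartilage protein that binds collagen, lower by -4.82 with 31 and 4. The ratio of Tnc rests on its 1 serum Tdg site, with a coverage of 15. Of the degrading enzymes 3 of 6 had a ratio and 2 were lower, Mmp9 (-2.88, 59 and 14 sites) and Mmp2 (-2.30, 10 and 4).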

How the data were processed

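Genomic DNA of mouse embryonic stem cells was analysed. Per the labels' protocols, 5-hydroxymethylcytosine and unmodified CGs were blocked, an engineered SssI methyltransferase decarboxylated 5caC and attached an azide, and tagged fragments were enriched, primed at the tag and sequenced on an Ion Proton. Per the submitters' processing notes mm10 was the build. For the aligner, the site filter and the library depths nothing is given in the sources used here.

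The deposited values are a coverage signal per CG and group, with 1183229 entries at 922427 positions, all multiples of 0.5, and were read as means of the authors' 2 technical replicates. The table held no replicate values and no control column, so the planned count model was not run and no p-value was computed. Listed positions were moved by 1 base, because all 9580 positions inside promoter windows then fell on the C of a CG; coordinates are 1-based, and the table has no strand.

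Gene spans and start windows came from RefSeq tables (GRCm38.p6, the same assembly as mm10). Of all genes, 19378 passed the filter of a mean summed coverage of 20. Ratios of coverage shares carry exact conditional Clopper-Pearson intervals from coverage summed over both replicates, and shares of sites or CGs carry exact Clopper-Pearson intervals. PCR reads are not independent molecules and a read can cover several CGs, so intervals cover counting error only. The method was tested on simulated counts drawn independently, as the intervals assume. Shared reads, PCR copies and replicate spread were not simulated, so that test cannot speak to them. Python 3.11.15, pandas 2.3.3 and SciPy 1.17.1 were used.

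The members and the gene lists were chosen with earlier results of these data known. Named were the fibrillar genes; of the other members, up to 5 called with the highest and up to 5 with the lowest ratio, and the 3 with most sites per kb in either Tdg group; members without any site; and of the pathway lists the 2 with the highest and the 2 with the lowest ratio. Neighbouring or partner chains were described with them. Further genes (Col6a2, Col7a1, Col12a1, Col13a1, Col15a1 to Col17a1, Col19a1 to Col23a1, Serpinh1, Sec23a, Bmp1, Ddr1, Ddr2, Mmp2 and Mmp9 among them) were named after their values were seen. Alternatives were site numbers, another scaling, coverage minimum, flanks, span ends, overlapping genes and the filter.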

Additional observations from a re-analysis of the deposited data

Results flagged for a closer look

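Col24a1, which encodes a fibril-forming chain of developing bone, had ratios of opposite sign between media in the 2 genotypes. The Tdg groups listed 9 sites in serum and 32 in serum-2i, with a log2 ratio of coverage share, serum-2i over serum, of 1.29 (interval 1.10 to 1.49). In wt cells 1 site was listed in serum and 3 were in serum-2i, with a summed coverage of 5.5 and 24, and a ratio of -2.24. The wt ratio rests on this 1 serum site, and of all genes with a wt ratio, which enter only through a listed serum wt site, 61.8% were called lower. Each value is the only 1 of its group, and the difference between the genotypes was not tested.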

How the results depend on the processing

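No paired analysis was possible because the table holds 1 value per group, so neither a replicate block nor leaving out replicates was run. Counting members by number of listed sites gave 6 higher between media in Tdg cells in place of 12, and 1 higher and 1 lower between genotypes in serum-2i in place of 2 and 5. Between genotypes a coverage of at least 10 gave 0 higher and 8 lower, a common minimum of 6 gave 1 higher, and median-ratio scaling, which sets the median of all genes (-0.19 there, 0.10 between media) to 0, gave 3 lower. The fibrillar median of -0.88 was 0.49 without span ends, -1.24 with 2 kb flanks, -0.16 with Col5a3 and Col24a1 as fibrillar and 0.31 with Col5a2 and Col11a1 ranked highest. Summed, the fibrillar log2 ratio of -0.78 was 0.014 without Col2a1, and that of other members, 0.04, was 0.21 without Col8a2; these repeats were added after the values were seen. The median of other members, 0.67, was 0.45 by number of sites, 0.19 with 2 kb flanks and 0.93 without sites in another span. Without span ends Col1a1 turned to 0.49 and Col7a1 to 2.82, and without sites in another span Col15a1 turned to 1.31; the cause was not tested. The share of sites was 0% in serum wt at a coverage of at least 10, which leaves that group 127 sites. Of 111 repeats of called members between media, 101 kept direction and call, 9 lost the call and 1 turned. Between genotypes 42 of 54 kept them and 12 lost the call. The repeats without the filter, which could not change a call, are among those kept. Repeats that left no ratio are not counted. These were Col25a1 between media at a coverage of at least 10, and Col22a1 between genotypes at a minimum of 6 or 10. Serum wt had the fewest sites, 8685.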

Other observations

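In serum Tdg the highest coverage of any collagen position was at one in Col13a1, a transmembrane collagen of muscle and its synapses (chromosome 10, position 61931837), with 134, and the next was in the same gene (position 61936868), with 128.5. The first was also the highest of serum-2i Tdg, with 107, and the second had 22.5 there. Next in serum-2i Tdg were a position in Col9a2 (chromosome 4, position 121052142), with 99 beside 60.5 in serum Tdg and 12.5 in serum-2i wt, and one in Col11a2 (chromosome 17, position 34064766), with 97 beside 25 in serum Tdg. The highest value in serum wt, 8.5, lay in the run of sites of Col8a2 (chromosome 4, position 126288589), where serum Tdg had 24.5 and neither serum-2i group was listed. In serum-2i wt the highest were a position in Col26a1 (chromosome 5, position 136864051), with 21 beside 37 in serum Tdg and 8.5 in serum-2i Tdg, one in Col15a1 (chromosome 4, position 47269839), with 20.5, and one in Col23a1 (chromosome 11, position 51428077), with 19 beside 15.5 in serum-2i Tdg.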
